A study of Mus musculus with 15 samples.

Results

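The contacts of the Lpin1 bait were compared between 3T3-L1 cells before induction of adipogenesis (day 0) and on days 1 and 2 after it. 3T3-L1 is an established mouse fibroblast line whose confluent cells turn into fat cells when given a hormone cocktail. The comparison rests on 6 of the 27 libraries of the series: replicates 1 and 2 of day 1 and of day 2, 4 libraries in all, against replicates 1 and 2 of day 0. All 6 were made by 4C-seq (circular chromosome conformation capture with sequencing), in which fixed chromatin is cut with HindIII, ligated, and read out from 1 fixed site, the bait. Each library gave a read count at each of 823355 HindIII sites of the mouse genome (build mm9).

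Day 0 cells were 2 days past confluence and labelled as preadipocytes. From day 0 the differentiating cells received 10% fetal calf serum, 1 μM dexamethasone, 0.5 mM 3-isobutyl-1-methylxanthine and 1 μg/ml insulin. Insulin alone was kept in the medium at day 2, so both later days fall in or at the end of the induction phase. The cells of all groups were fixed for 10 min in 2% formaldehyde, and DpnII was the second enzyme. The line is 1 established clone, and whether the replicates of a day came from separate cultures is not stated in the labels. P-values therefore reflect how much these libraries vary, which may be technical.

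Lpin1 encodes lipin 1, a phosphatidate phosphatase that makes diacylglycerol for triglyceride synthesis, and which is also known as a transcriptional co-regulator in fat and liver. In 4C-seq the number of reads at a site rises with how often it was ligated to the bait, and it falls steeply with distance along the chromosome. Beyond that fall, contacts follow domains and compartments: active regions tend to meet other active regions of the same chromosome, and contacts with other chromosomes are rare and scattered. Reads are also multiplied by PCR, so far from the bait the number of captured sites (sites with at least 1 read) is a steadier measure than the number of reads.

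The bait site starts at chr12:16597111 in mm9. Sites within 10 kb of it, 8 in all, were left out because reads there include uncut and self-ligated bait. This left 37887 HindIII sites on chromosome 12 and 785460 on other chromosomes. In the gene order of the GRCm38.p6 annotation, the nearest protein-coding genes on the low-coordinate side of Lpin1 are Trib2, which encodes a pseudokinase, Lratd1, Nbas, Ddx1, which encodes an RNA helicase, and the proto-oncogene Mycn. Neighbours on the high-coordinate side include Ntsr2, which encodes a neurotensin receptor, the oestrogen-responsive gene Greb1, and the transcriptional repressor E2f6. Windows are given by mm9 position and were not assigned to these genes, whose positions belong to another build.

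The libraries held 1915630 to 3002206 reads, of which 1453951 to 2536087 lay outside the bait zone. On other chromosomes 18809 and 16350 sites were captured on day 0 (replicates 1 and 2), 17193 and 6885 on day 1, and 29806 and 8425 on day 2. The replicate 2 libraries of days 1 and 2 were thus low in captured sites although their depth was not low. They also had the highest shares of captured sites with a single read, 36.9% on day 1 and 29.2% on day 2, against 14.2% to 19.5% in the other 4.

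The same pair stood apart in which sites they captured. Of the other-chromosome sites of day 1 replicate 2, 52.2% were also captured in day 2 replicate 2, and 42.7% the other way round. Every other ordered pair of the 6 libraries, same day or not, shared between 3.23% and 14.0%. Of the 827 sites with more than 200 reads in day 1 replicate 2, 89.6% were captured in day 2 replicate 2, at a median of 3 reads. In the reverse direction it was 93.0% of 1191 sites, again at a median of 3 reads. Both libraries also shared many sites with the B cell library of the same bait (38.2% and 35.4% of their sites, against 9.39% to 15.3% for the other 4).

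Setting a site's reads to 0 wherever another Lpin1-bait library had at least 20 times as many removed 45.5% of the captured other-chromosome sites of day 1 replicate 2 and 27.5% of those of day 2 replicate 2, with 1.38% and 0.657% of their reads. After that, the pair shared 6.39% and 3.93% of their sites, and every other ordered pair between 1.06% and 8.77%. The rule takes out sites that libraries share at strongly unequal reads, so a fall in sharing was fixed in advance. Why these libraries share weak sites was not tested. Results below are given with all 6 libraries, and with that pair left out or this 20-times rule applied where it matters.

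**Figure D1:**
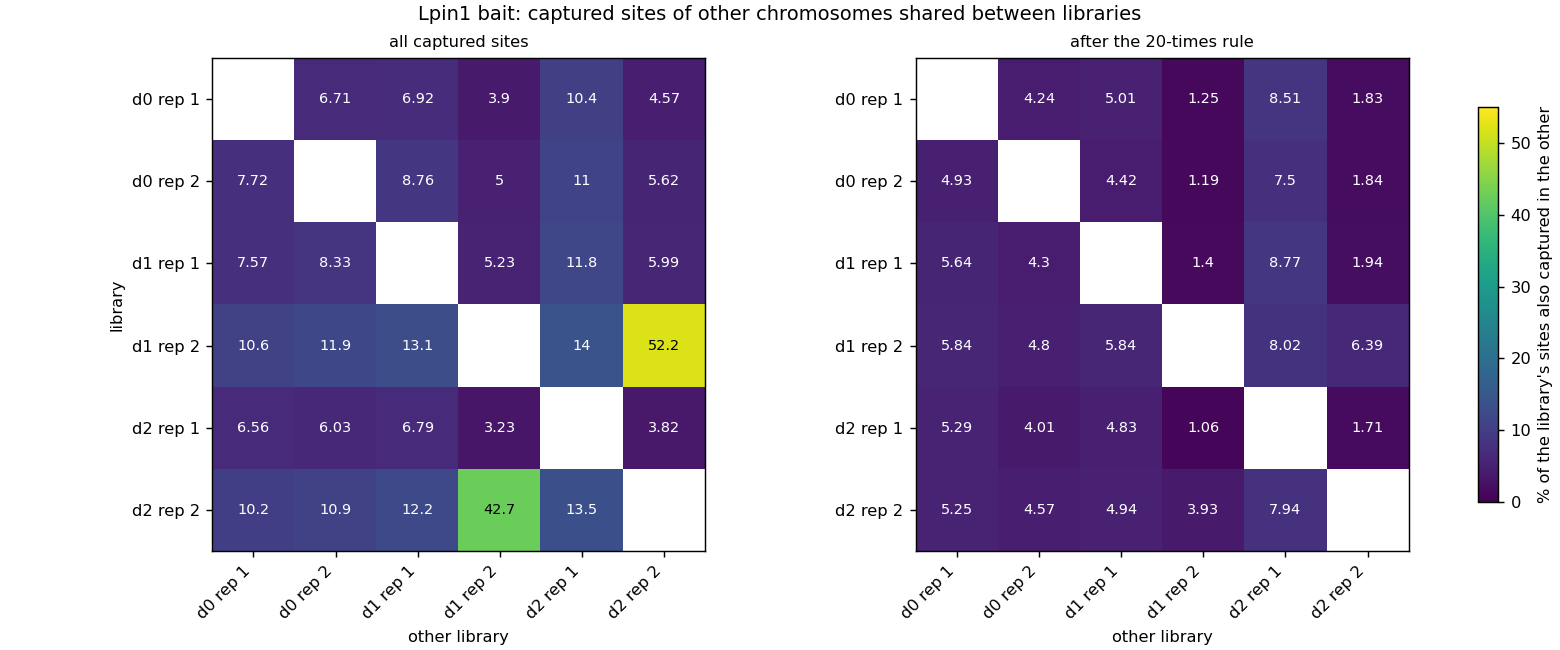
Each cell gives the percentage of 1 library's captured sites on other chromosomes (row) that were also captured in another library (column), for all captured sites (left) and after the 20-times rule (right). On the left, replicate 2 of days 1 and 2 stand out at 52.2% and 42.7%, and on the right the same cells read 6.39% and 3.93%. The rule removes sites shared at strongly unequal reads, so lower values on the right follow from it.

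The distance profile on chromosome 12 had the same uneven shape on all 3 days. Within 1 Mb, 86.3% to 91.8% of sites were captured on either side in every library. Between 1 and 2 Mb the sides parted: on the low side 75.8% and 68.0% of sites were captured on day 0, 76.4% and 53.5% on day 1, and 70.7% and 50.5% on day 2. On the high side the values were 33.1% and 32.5%, 35.9% and 27.5%, and 30.6% and 24.7%. In each of the 6 libraries the low side was thus captured more often than the high side at the same distance.

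Reads gave the same picture per site. At 1 to 2 Mb, day 0 held 145 and 179 reads per site on the low side against 50 and 57 on the high side. Day 2 held 110 and 105 against 28 and 37. Within 1 Mb the low side did not fall evenly. Its bin at 50 to 100 kb held 746 to 1476 reads per site in the 6 libraries, and its bin at 0.5 to 1 Mb held 700 to 1419.

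On the high side a contact-poor stretch was followed by a contact-rich one. From 22000001 to 25000000, at about 5 to 8 Mb from the bait, 5 to 16 of 1046 sites were captured per library. In the next 1 Mb block, from 25000001 to 26000000, it was 52.8% and 48.2% of 299 sites on day 0, 54.8% and 27.1% on day 1, and 55.5% and 31.8% on day 2. The block from 21000001 to 22000000, just before the poor stretch, was also rich, with 33.0% to 45.1% captured. How many sites of the poor stretch can be mapped was not tested.

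**Figure D2:**
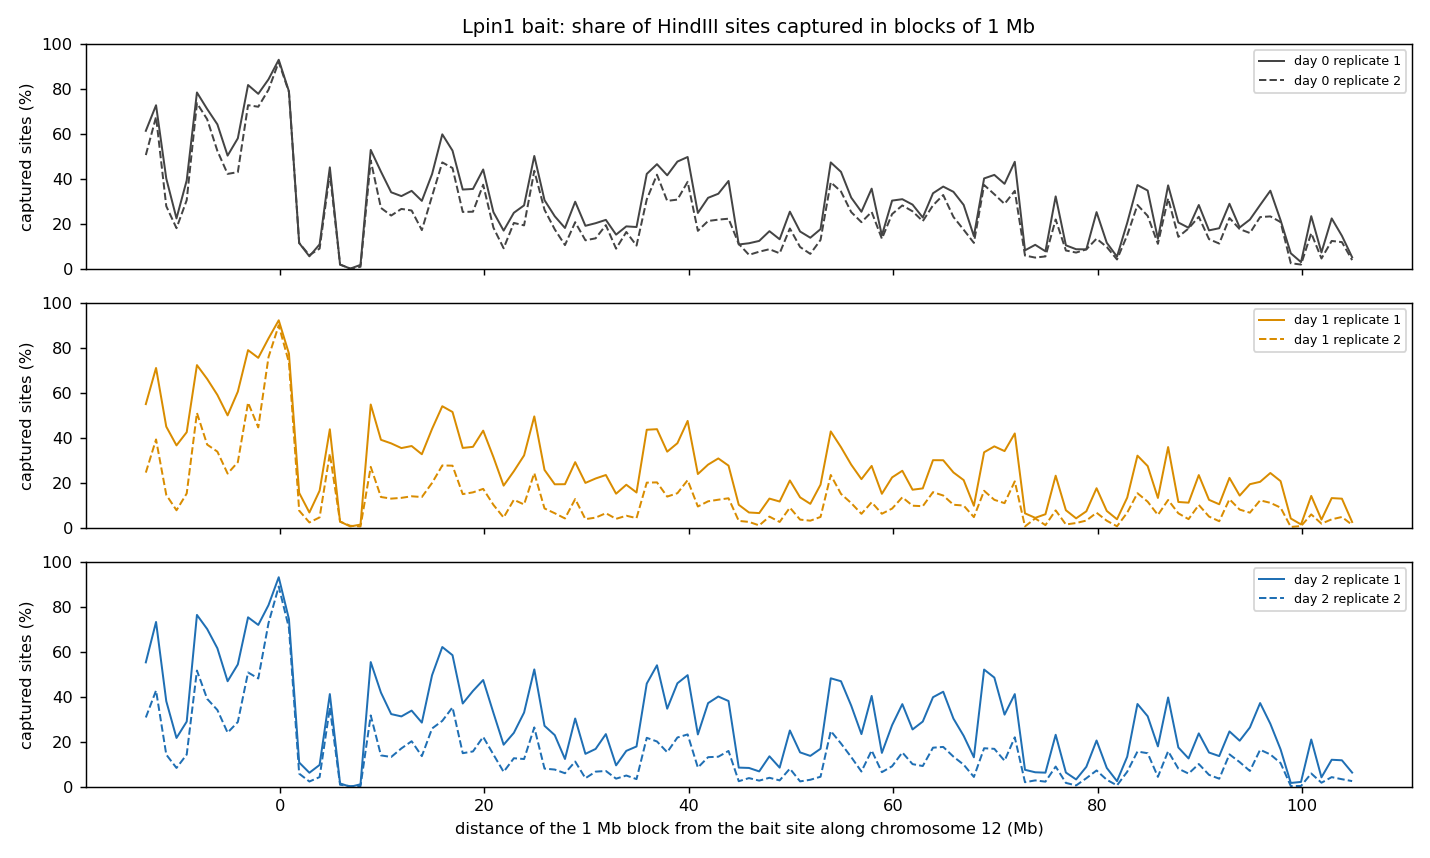
Percentage of HindIII sites captured in blocks of 1 Mb along chromosome 12 against the distance of the block from the bait site, 1 panel a day, replicate 1 solid and replicate 2 dashed. Peaks and troughs fall at the same places in all 6 libraries, and the replicate 2 libraries of days 1 and 2 run lower beyond 1 Mb.

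Over all blocks of 1 Mb, the Spearman correlation of captured shares was 0.96 to 0.98 between the replicates of a day and 0.95 to 0.97 between libraries of different days other than the pair above, which reached 0.98. These values describe the points of 1 shared chromosome, with shared site density. The ranges for the same day and for different days overlapped.

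Of the blocks more than 10 Mb away, that with the highest mean capture over the 6 libraries was the one from 4000001 to 5000000. It had 72.7% and 67.5% of its 308 sites captured on day 0, 71.1% and 39.3% on day 1 and 73.4% and 42.9% on day 2. It lies toward the centromeric end, on the low side of the bait. On the high side the leading block ran from 32000001 to 33000000, with 59.8% and 47.3%, 54.1% and 27.7%, and 62.2% and 29.3% of 368 sites. In both blocks replicate 1 was alike on all days, and the lower values belonged to the replicate 2 libraries of days 1 and 2.

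Of the 100 kb windows more than 1 Mb from the bait, the best captured began at 17.6, 17.7, 13.2, 21.2 and 21.4 Mb. Their mean captured shares over the 6 libraries ran from 82.8% to 95.3%. None of these windows differed between days in the test described below, with log2 differences of reads from -0.45 to 0.32 and edgeR adjusted p of 1 on either day.

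Summary values asked whether the bulk of contacts moved nearer to the bait or farther from it in the first days. The share of all reads that lay on chromosome 12 was 76.6% and 65.5% on day 0, 76.6% and 71.6% on day 1, and 65.8% and 63.0% on day 2. Day 2 had the lowest library and day 0 the widest spread. Day 0 overlapped with both later days, which did not overlap with each other. The mean differed from day 0 by 3.08 percentage points on day 1 (exact permutation p = 0.667, n = 2 and 2) and by -6.67 on day 2 (exact permutation p = 0.667). For 4 libraries against 2 it differed by -1.79 (exact permutation p = 0.933). All such tests were two-sided, and an exact permutation test of 2 against 2 libraries cannot go below p = 0.333, or of 4 against 2 below 0.133.

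Of the reads on chromosome 12, the share within 1 Mb of the bait was 62.4% and 54.3% on day 0, 63.1% and 59.9% on day 1, and 62.6% and 56.8% on day 2. Replicate 1 was within 1 percentage point on all days, while the lowest value was day 0 replicate 2. The mean differed from day 0 by 3.17 percentage points on day 1, by 1.39 on day 2 and by 2.28 for both days (exact permutation p = 0.667, 0.667 and 0.4). Without day 0 replicate 2 all 3 differences turned negative, at -0.898, -2.67 and -1.79 percentage points.

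More than 20 Mb away lay 14.9% and 19.8% of chromosome 12 reads on day 0, 13.5% and 16% on day 1, and 15.9% and 19.5% on day 2. Here replicate 2 was above replicate 1 on each day. The slope of log10 reads per site on log10 distance, from 10 kb to 10 Mb, was -1.08 and -0.97 on day 0, -1.05 and -1.03 on day 1, and -1.12 and -1.08 on day 2. The day 1 values lay between those of day 0, and day 2 differed from day 0 by -0.07 (exact permutation p = 0.667). For none of these summaries was a difference of means from day 0 larger than the gap between the day 0 replicates. Days 1 and 2 did not overlap with each other in the slope. Nor did they in the share of reads on chromosome 12 (76.6% and 71.6% against 65.8% and 63.0%). Those differences between days 1 and 2 were not tested.

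**Figure D3:**
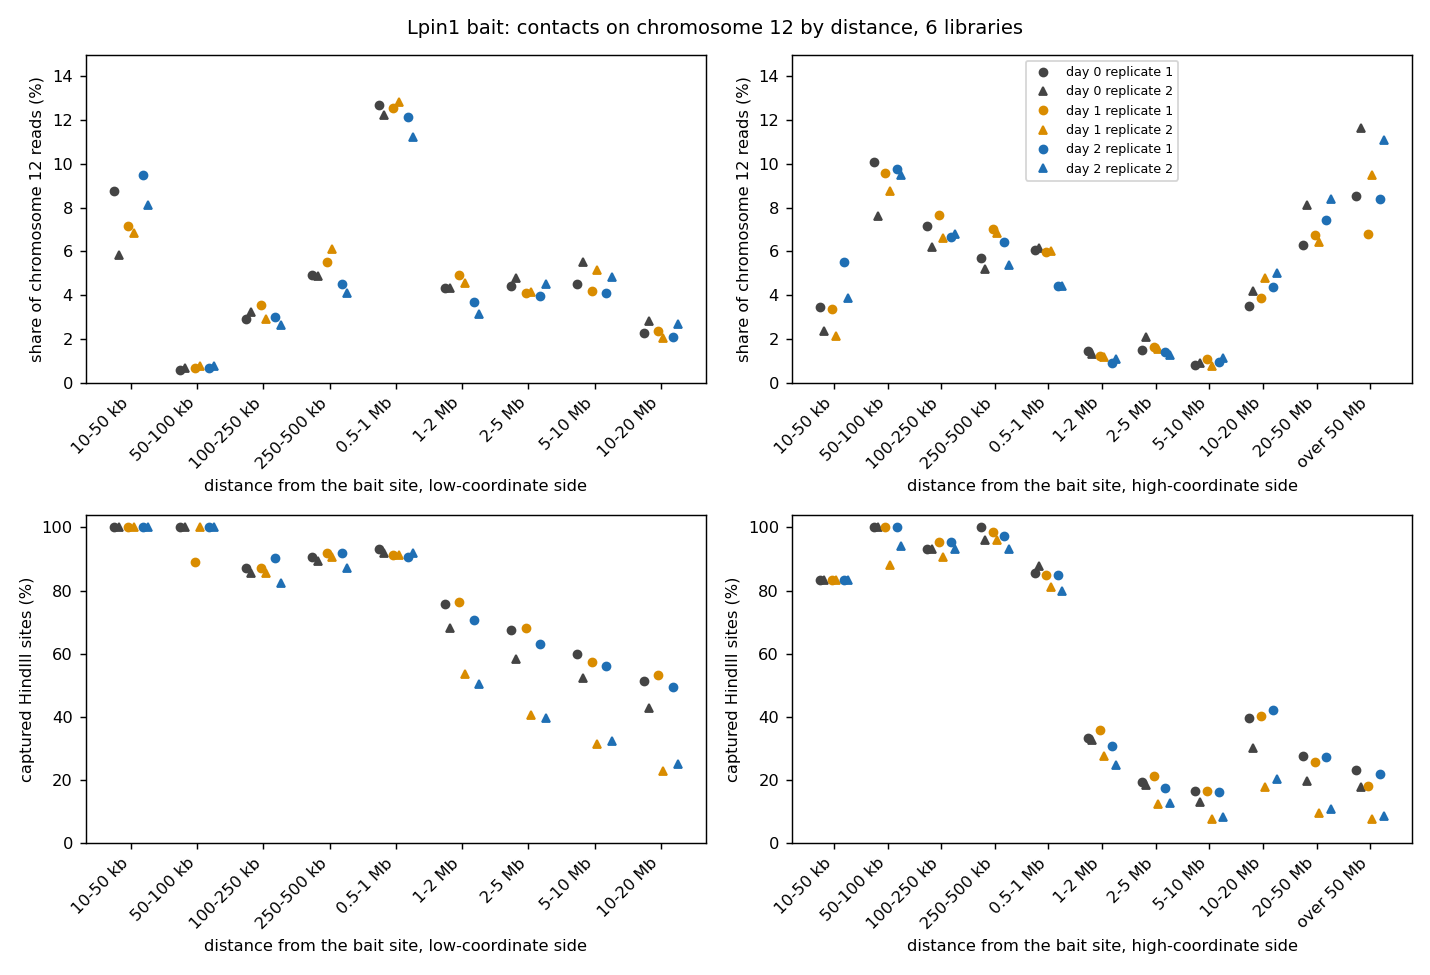
Share of chromosome 12 reads (top) and percentage of HindIII sites captured (bottom) in bins of distance from the bait site, low-coordinate side on the left and high-coordinate side on the right, with 1 point per library (circles replicate 1, triangles replicate 2). At 0.5 to 1 Mb on the high side the 2 day 2 libraries (4.43% and 4.41%) lie below the other 4 (5.96% to 6.14%).

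Split into 20 bins of distance and side, chromosome 12 reads showed 1 difference that passed a test. The bins had been planned as a description, and an edgeR quasi-likelihood fit with Benjamini-Hochberg adjustment over the 20 bins was added after the data were seen. In the bin from 0.5 to 1 Mb on the high side, the share of chromosome 12 reads was 6.07% and 6.14% on day 0, 5.96% and 6.01% on day 1, and 4.43% and 4.41% on day 2. Day 0 and day 1 lay close together, and both day 2 libraries were lower. The day 2 value was 0.72 times that of day 0, which on the log2 scale is -0.47 (SE 0.11, 95% interval -0.72 to -0.22, edgeR adjusted p = 0.0352).

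It was the only bin called on day 2, 5% of the 20, and on day 1 and for both days together 0 bins (0%) were called, with 1 bin in each at an unadjusted p under 0.05 by edgeR (5%). DESeq2 also called 1 bin on day 2, with 3 unadjusted, and 0 in the other comparisons, with 1 and 0 unadjusted. Groups of shares that did not overlap were common, at 50% of bins on day 2, 35% on day 1 and 15% for both days. The day 2 call was lost when any of the 4 compared libraries was left out (edgeR adjusted p = 0.0917 without day 0 replicate 1, 0.288 without day 0 replicate 2, 0.138 without day 2 replicate 1, and 0.122 when day 2 replicate 2 was removed). The size moved little in those fits, from -0.46 to -0.47. It was also lost with TMM scaling (log2 difference -0.41, adjusted p = 0.0929) and without the replicate 2 libraries of days 1 and 2. DESeq2 kept it (-0.37, adjusted p = 0.0496), as did edgeR with the 20-times rule (-0.47, adjusted p = 0.0400).

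Of its 138 sites, 91 had a lower mean share on day 2 than on day 0, 33 a higher and 14 an equal one. For comparison, in the bin at the same distance on the low side 88 of 172 sites were lower and 76 higher. Uneven counts also occurred on day 2 in low-side bins that did not pass. At 100 to 250 kb 38 of 62 sites were lower and 18 higher, and at 10 to 50 kb 1 of 12 was lower and 11 higher. The sites of a bin come from the same libraries and are not replicates. Without its 10 strongest sites the high-side bin held 4.63% and 4.5% of chromosome 12 reads on day 0, 4.59% and 4.27% on day 1, and 3.35% and 3.10% on day 2, so day 2 was again the lowest. In captured sites the bin held 85.5% and 87.7% on day 0, 84.8% and 81.2% on day 1, and 84.8% and 79.7% on day 2. Scaled by all captured sites of chromosome 12, its log2 difference was 0.37 (edgeR adjusted p = 0.943). That sign comes from the scale, since most sites of the bin were captured in every library while the chromosome's total was 5461 in day 2 replicate 2 against 11547 and 9142 on day 0.

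The day 2 difference in this bin was also tested against day 1, and the log2 value was -0.44 (SE 0.11, edgeR adjusted p = 0.0362). On the mirrored low side, the bin at 0.5 to 1 Mb held 12.7% and 12.2% on day 0, 12.6% and 12.8% on day 1 and 12.1% and 11.2% on day 2. The day 2 difference there was -0.09 (95% interval -0.28 to 0.09). Whether the sides differ in their change was not tested.

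Nearer to the bait, no other bin passed in this fit. At 10 to 50 kb the low side held 8.76% and 5.83% of chromosome 12 reads on day 0 and 9.48% and 8.13% on day 2. These groups overlapped, and the log2 difference was 0.27 (95% interval -0.16 to 0.70). Without day 0 replicate 1 it was 0.60, and this low-side bin was called in that fit, which kept a lone day 0 library. The 6 sites at 10 to 50 kb on the high side held 3.47% and 2.38% of chromosome 12 reads on day 0, 3.38% and 2.11% on day 1 and 5.51% and 3.85% on day 2. Both day 2 libraries were above all others, with a log2 difference from day 0 of 0.68 (SE 0.27, 95% interval 0.08 to 1.28, edgeR adjusted p = 0.308). This bin was called on day 2 in 4 of the fits that left libraries out: without day 0 replicate 1 (0.98, adjusted p = 0.0146), without day 1 replicate 1 (0.68, 0.0418), without day 1 replicate 2 (0.68, 0.0385) and without the replicate 2 libraries of days 1 and 2 together (0.91, 0.0464).

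On day 1, higher shares were seen at middle distances. At 250 to 500 kb the high side held 5.71% and 5.18% on day 0 and 7.04% and 6.85% on day 1 (log2 difference 0.35, 95% interval 0.02 to 0.69, edgeR adjusted p = 0.579). The low side held 4.91% and 4.86% on day 0 and 5.51% and 6.12% on day 1 (0.25, 95% interval -0.01 to 0.51, adjusted p = 0.579). On day 2 the shares were 6.43% and 5.38% on the high side and 4.5% and 4.08% on the low side. The step from day 1 to day 2 passed on the low side, at -0.44 in log2 (SE 0.12, edgeR adjusted p = 0.0362), 1 of the 2 bins called between those days (10% of bins; 20% unadjusted).

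At 1 to 2 Mb, day 2 was lowest on both sides. The low side held 4.31% and 4.34% on day 0, 4.94% and 4.58% on day 1 and 3.67% and 3.12% on day 2 (day 2 against day 0: log2 difference -0.35, 95% interval -0.70 to 0.01, edgeR adjusted p = 0.357). The high side held 1.44% and 1.33%, 1.22% and 1.17%, and 0.912% and 1.07% (-0.49, 95% interval -1.04 to 0.07, adjusted p = 0.368). Of the sites in these bins, 176 of 331 on the low side and 90 of 320 on the high side had a lower mean share on day 2, against 100 and 41 with a higher one. These shares add to 100% of chromosome 12 reads in a library, so a bin can fall because another rises.

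**Figure D4:**
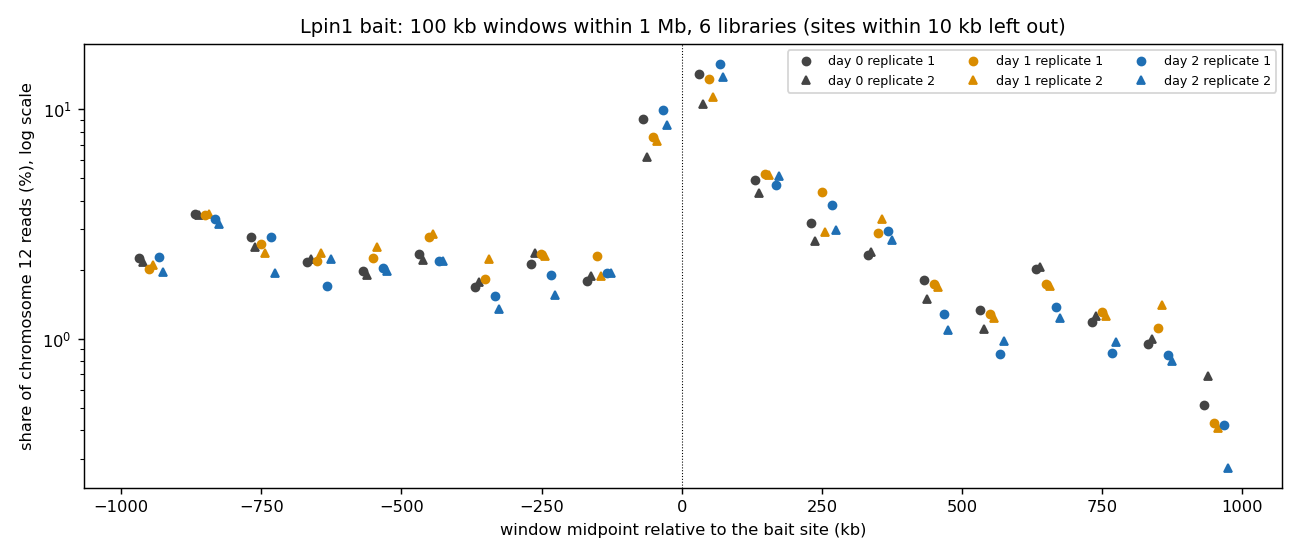
Share of chromosome 12 reads (log axis) in the 20 windows of 100 kb within 1 Mb of the bait site, by the distance of the window's midpoint, with 1 point per library. The windows beside the bait hold 6.19% to 15.7% per library, and in the window that starts at 17.2 Mb the day 2 points (1.37% and 1.23%) lie below the other 4 (1.70% to 2.05%).

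In windows of 100 kb, 1154 of chromosome 12 were tested with edgeR on reads. None passed (0%) on day 1, on day 2 or for both days together, by edgeR or by DESeq2. By edgeR 20, 11 and 21 windows had an unadjusted p under 0.05, which is 1.73%, 0.953% and 1.82% of those tested, and by DESeq2 34, 32 and 25. The groups' libraries did not overlap in 34.6%, 36.4% and 13.3% of windows. The median standard error of the log2 difference was 2.31 on day 1 for windows over 1 Mb away and 0.24 for the 20 windows within 1 Mb, so only in the latter could a modest difference be seen.

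Within 1 Mb the number of windows that were higher moved with the scaling. With TMM, which set factors from 0.821 (day 1 replicate 2) to 1.24 (day 0 replicate 2), 19 of the 20 windows were higher on day 1 with a median log2 difference of 0.39. Scaled by totals alone, 15 were higher, with a median of 0.05. For day 2 the counts were 12 higher with TMM (median 0.05) and 7 by totals alone (-0.13). Over all 1154 windows the median was 0 with TMM and -0.30 by totals on day 1, and -0.10 and -0.28 on day 2. The split of all windows on day 1 was 570 higher to 574 lower with TMM and 447 to 697 by totals. Relative to the median of all windows, the median of the 20 near windows stood at 0.39 with TMM and 0.35 by totals on day 1, and at 0.15 under both on day 2. Scaling moves all windows of a library alike, so this closeness of the scalings was largely fixed in advance. The reference is mainly the 1134 windows over 1 Mb away, with a median standard error of 2.31 on day 1.

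The window with the smallest p on day 1 began at 16.9 Mb on the high side of the bait. It held 25854 and 32530 reads on day 0, 56401 and 38267 on day 1 and 29253 and 30126 on day 2. As a share of chromosome 12 reads this was 2.32% and 2.38%, 2.90% and 3.32%, and 2.94% and 2.70%, so all 4 libraries of days 1 and 2 were above both of day 0. Its log2 difference was 0.75 on day 1 (SE 0.22, 95% interval 0.32 to 1.17, edgeR adjusted p = 0.621) and 0.44 on day 2 (95% interval 0.02 to 0.86, adjusted p = 1), and 0.40 on day 1 by totals alone.

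The next 2 windows on day 1 began at 16.8 Mb (log2 difference 0.60, edgeR adjusted p = 1) and 16.1 Mb (0.64, adjusted p = 1). The windows beside the bait, at 16.6 and 16.5 Mb, came next on day 2 among windows that were higher. The window at 16.6 Mb held 14.2% and 10.6% of chromosome 12 reads on day 0, 13.6% and 11.3% on day 1 and 15.7% and 13.8% on day 2. Its log2 difference on day 2 was 0.41 (95% interval 0.14 to 0.67, edgeR adjusted p = 1), while the day 0 and day 2 shares overlapped.

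Leaving out day 0 replicate 1 changed the calls beside the bait. Without that library edgeR called 4 windows on day 1, at 16.5 (log2 difference 0.72), 16.6 (0.68), 16.7 (0.74) and 16.8 Mb (0.89), with adjusted p from 5.36e-05 to 0.0429. On day 2 and for both days it then called those at 16.5 and 16.6 Mb, with log2 differences from 0.74 to 0.89. The lone remaining day 0 library was assumed to vary like the other groups. In that library the 4 windows held smaller shares than in replicate 1, such as 6.19% against 9.12% at 16.5 Mb.

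Farther out the named windows rested on few sites. The window at 29.6 Mb, 13 Mb from the bait, led the higher windows of day 2 (log2 difference 3.72, 95% interval 1.36 to 6.09, edgeR adjusted p = 1). It held 85 and 100 reads on day 0, 393 and 882 on day 1 and 123 and 1783 on day 2. In day 1 replicate 2, 870 of the 882 reads lay at a single site, and in day 2 replicate 2 the strongest site, a different one, held 644. Captured sites in it numbered 6 and 7 of 29 on day 0, 13 and 6 on day 1 and 5 and 7 on day 2. The day 2 difference was thus one of reads and not of sites.

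Among lower windows, the one at 116.7 Mb held 34 and 463 reads on day 0 and 0 in all 4 libraries of days 1 and 2 (edgeR adjusted p = 1, 1 and 0.815 in the 3 comparisons). Nearly all day 0 reads, 34 and 454, lay at 1 site. The others were at 67.3 and 13.3 Mb on day 1, at 115.8 and 107.1 Mb on day 2, and at 97.6 and 117.0 Mb for both days, with edgeR adjusted p of 0.9999 to 1. Of these only the window at 13.3 Mb was well filled. It held 0.288% and 0.278% of chromosome 12 reads on day 0 and 0.188% and 0.0526% on day 1, with day 2 at 0.304% and 0.276%. Its captured sites were 25 and 24 on day 0 and 25 and 18 on day 1.

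Single HindIII sites were tested within 1 Mb of the bait, a test added after the data were seen. None of 591 passed with edgeR (0%) on day 1, day 2 or both days, with 7, 9 and 11 at an unadjusted p under 0.05. DESeq2 called 1, chr12:17199711, on day 2 and for both days (adjusted p = 3.40e-08 and 6.06e-05). Its reads were 2 and 190 on day 0, 1 and 0 on day 1 and 0 in both day 2 libraries. Nearly all of its reads came from day 0 replicate 2.

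The site with the highest mean share, 16647158, lies 50 kb above the bait. It held 24098 and 25177 reads on day 0, 43131 and 26086 on day 1 and 26977 and 30785 on day 2. In share this was 2.16% and 1.84%, 2.22% and 2.26%, and 2.72% and 2.76% of chromosome 12 reads. Both day 2 libraries were highest. The site at 16637230, 40.1 kb above the bait and in the bin at 10 to 50 kb, held 1.63% and 1.03% on day 0, 1.27% and 0.845% on day 1 and 2.75% and 1.67% on day 2. Its 2 day 2 libraries also lay above all others, and they differed from each other by more than the day 0 pair did.

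On other chromosomes the share of captured sites varied more within days 1 and 2 than between days. Thinned to 1453951 reads, libraries captured 2.39% and 1.95% of sites on day 0, 1.99% and 0.844% on day 1 and 3.77% and 1.01% on day 2. Unthinned, the values were 2.39% and 2.08%, 2.19% and 0.877%, and 3.79% and 1.07%. The highest and lowest libraries were both of days 1 and 2. The thinned means differed from day 0 by -0.753 percentage points on day 1, by 0.223 on day 2 and by -0.265 for both days (exact permutation p = 0.667, 1 and 0.933). Without the replicate 2 libraries of days 1 and 2, the difference for both days was 0.712 percentage points.

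Relative to each library's own mean, chromosome 19 was captured 1.90 and 2.01 times as often as all other chromosomes together on day 0, 2.00 and 1.94 times on day 1 and 1.82 and 1.92 times on day 2. Chromosome 6 came next, with 1.35 to 1.49 times, and chromosomes 15 and 17 followed, with 1.18 to 1.30 and 1.19 to 1.31 times. The X chromosome was low, at 0.419 and 0.435 times on day 0, 0.466 and 0.463 on day 1 and 0.403 and 0.432 on day 2. Chromosomes 3, 14, 1 and 4 lay between 0.731 and 0.876 times. Chromosome 19 was the highest in each of the 6 libraries.

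**Figure D5:**
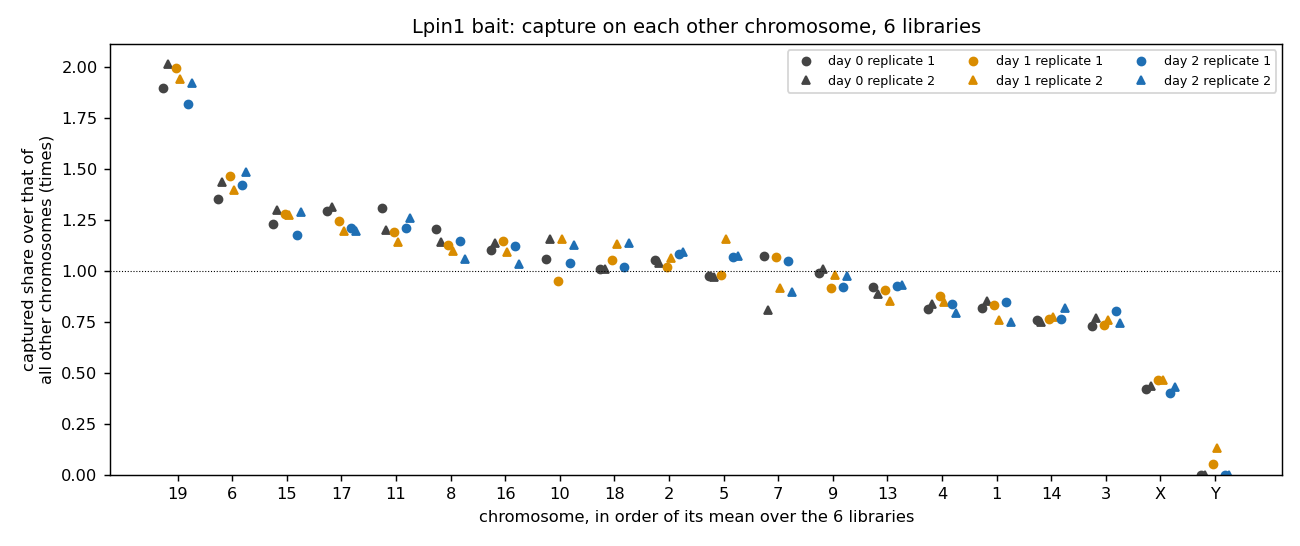
Captured share of HindIII sites on each chromosome other than 12, over the share on all other chromosomes of the same library, with 1 point per library and chromosomes in order of their mean. Chromosome 19 lies at 1.82 to 2.01 times in the 6 libraries and the X chromosome at 0.403 to 0.466 times.

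For 5 of the 20 chromosomes (25%) the 4 libraries of days 1 and 2 did not overlap with those of day 0. Chromosome 17 was lower, at 1.29 and 1.31 times on day 0, 1.24 and 1.19 on day 1 and 1.21 and 1.19 on day 2. Chromosome 9 was also lower, with means of 1.00 on day 0 and 0.948 ± 0.0354 over the 4 later libraries (SD, n = 4). Chromosomes 18, 5 and 14 were higher, with means of 1.01, 0.971 and 0.755 on day 0 against 1.09 ± 0.0589, 1.07 ± 0.0737 and 0.781 ± 0.0253 later (SD, n = 4). The largest of these 5 differences of means, at chromosome 5, was from 0.971 to 1.07 times, and the exact permutation test cannot go below p = 0.133 here.

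In windows of 500 kb, 2250 windows of other chromosomes with a mean of at least 3 captured sites were tested on captured sites. None passed (0%) on day 1, on day 2 or for both days, by edgeR or DESeq2. At an unadjusted p under 0.05 edgeR had 113, 116 and 139 windows, which is 5.02%, 5.16% and 6.18% of those tested, and DESeq2 had 5, 3 and 8. The groups did not overlap in 35.4%, 32% and 15.6% of windows. The median standard error of a log2 difference was 0.74 on day 1 and 0.65 on day 2.

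The lowest adjusted p was 0.209, shared by 2 windows on day 2. The window at 107.0 Mb of chromosome 10 had 17 and 21 of 151 sites captured on day 0, 7 and 6 on day 1 and 10 and 4 on day 2. As a multiple of the library's other-chromosome share this was 4.70 and 6.68, 2.12 and 4.53, and 1.75 and 2.47 times, so every later library was below both of day 0 on either scale. The log2 difference was -1.58 on day 2 (95% interval -2.39 to -0.76, edgeR adjusted p = 0.209) and -1.31 for both days (-2.0 to -0.61, adjusted p = 0.355). With the 20-times rule it was -1.91 on day 2, and without the replicate 2 libraries of days 1 and 2 it was -1.70 (adjusted p = 0.201 and 0.606).

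The adjoining window at 107.5 Mb had 15 and 31 of 177 sites on day 0, 8 and 8 on day 1 and 11 and 12 on day 2 (log2 difference for both days -1.08, edgeR adjusted p = 0.355). As multiples these were 3.54 and 8.41, 2.06 and 5.16, and 1.64 and 6.32 times, and on this scale the days overlapped. Without day 0 replicate 1 it was the 1 window called on day 2 (-1.69, adjusted p = 0.0374) and for both days (-1.62, 0.0156). Over 106500001 to 108000000, a stretch taken from earlier results on these data, captured sites were 48 and 68 of 493 on day 0, 27 and 22 on day 1 and 39 and 24 on day 2. In sites both day 0 libraries were above the others. As a multiple of the library's other-chromosome share the stretch stood at 4.07 and 6.63 times, 2.50 and 5.09, and 2.08 and 4.54, where the days overlapped. Reads there were 1101 and 3565 on day 0, 1390 and 915 on day 1 and 699 and 760 on day 2, where day 1 replicate 1 lay between the day 0 libraries.

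The window at 36.0 Mb of chromosome 1 was among the higher ones. It had 2 and 0 of 142 sites captured on day 0, 6 and 2 on day 1 and 16 and 4 on day 2, with a log2 difference of 2.99 on day 2 (95% interval 1.43 to 4.56, edgeR adjusted p = 0.209). The other windows with the smallest p on day 2 were at 143.5 Mb of chromosome 3 and 119.0 Mb of chromosome 2 among those that were higher, and at 94.5 Mb of chromosome 1 among those that were lower (8 and 6 sites on day 0, 1 and 0 on day 2, adjusted p = 0.271).

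On day 1 the leading higher windows were at 112.5 Mb of chromosome 11 (1 and 0 sites on day 0, 8 and 3 on day 1), 83.0 Mb of chromosome 18 (2 and 1, then 10 and 4) and 57.5 Mb of chromosome 4 (2 and 2, then 11 and 3). The leading lower ones were at 12.5 Mb of chromosome 10 (9 and 5 sites, then 0 and 0), 58.0 Mb of chromosome 9 (6 and 11, then 0 and 1) and 121.5 Mb of chromosome 8 (10 and 9, then 1 and 1). Their edgeR adjusted p ran from 0.561 to 0.810. Each of these 6 windows is small in counts and did not pass.

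For the best captured windows of other chromosomes no difference passed. The pair from 116500001 to 117500000 of chromosome 10 had 100 and 98 of 295 sites captured on day 0, 89 and 60 on day 1 and 108 and 66 on day 2. That was 9.65 to 23.2 times the library's mean on other chromosomes. The multiple was highest in the 2 libraries with few captured sites, day 1 replicate 2 and day 2 replicate 2, at 23.2 and 20.9 times. The log2 differences of its 2 windows lay between -0.23 and 0.15 on either day (edgeR adjusted p of at least 0.981). The series also holds libraries of Pparg and Ifng baits, which were not compared here. Whether the high capture of this pair of windows is specific to the Lpin1 bait was therefore not tested.

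Next came the window at 3.0 Mb of chromosome 11, beside the centromeric end, with 14.4% to 24.2% of 132 sites captured. The window at 77.5 Mb of chromosome 2 had 4.46% to 19.1% and that at 102.0 Mb of chromosome 15 had 1.54% to 17.7%. Their edgeR log2 differences were 0.45 and 0.17 at chromosome 11, -0.39 and 0.05 at chromosome 2, and -0.41 and -0.51 at chromosome 15, on days 1 and 2 in that order, with adjusted p of at least 0.981. At chromosome 15 the low values, 2.31% and 1.54%, were those of the replicate 2 libraries of days 1 and 2.

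Single sites with many reads on other chromosomes varied within days. The site at 39984967 of chromosome 17 held 939 and 3157 reads (day 0), 3550 and 333 (day 1), and 1389 and 1840 (day 2). The site at 17105804 of chromosome 3 held 338 and 519, 1151 and 1895, and 861 and 201. At the former the ranges of the 3 days overlapped, and at the latter both day 1 libraries were above the other 4.

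Windows of other chromosomes varied between all libraries. The Spearman correlation of captured sites over the tested windows was 0.22 to 0.23 between replicates of a day and 0.14 to 0.32 between libraries of different days, again without the pair named above, which had 0.50. After the 20-times rule that pair had 0.08, replicates of a day 0.16 to 0.20 and other pairs 0.10 to 0.30. A fall for that pair follows from the rule, which removes sites shared at strongly unequal reads. These windows hold few captured sites each, and the range for different days spanned that for the same day. Between days 1 and 2, 0 windows passed with edgeR on chromosome 12 or elsewhere, with 1.82% and 2.71% at an unadjusted p under 0.05.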

How the data were processed

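The authors deposited counts: whole numbers of reads at each HindIII site, not normalised. Per the submitters' processing notes Bowtie (no version) and mm9 were used; read filters and duplicate removal are not given in the sources used here. The replicate number stands only in the deposited names. The members, windows and tests were chosen with earlier results of these data known.

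Reads were summed over 100 kb windows of chromosome 12, and captured sites over 500 kb windows elsewhere. Windows were fitted by the robust quasi-likelihood method of edgeR 4.0.16 (R 4.3.3; TMM, fit over the 5 groups and 9 libraries of the bait, Benjamini-Hochberg within a contrast, threshold 0.05), with DESeq2 1.42.0 as an alternative; chromosome 12 windows passed filterByExpr. The 20 bins were scaled by chromosome 12 totals. For single values SciPy 1.17.1 gave the exact permutation test, two-sided. The fits were tested on simulated data with planted changes larger than the differences reported near the bait. That test therefore does not show whether differences of such a size are found. Up to 3 windows per direction, contrast and part are named, by smallest p where none passed, besides the 5 best captured ones. P-values of bins and single sites come from tests added later.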

Additional observations from a re-analysis of the deposited data

Results flagged for a closer look

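In the bin at 100 to 250 kb on the high side, 1 of the 4 libraries of days 1 and 2, day 1 replicate 1 with 7.65% of chromosome 12 reads, stood apart from the rest: its gap to the nearest value was 0.83 of the range of the 4. Chance gives such a gap in about 1 in 20 groups, and the distance profile has 20 bins.

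Days 1 and 2 differed from each other in 2 of the 20 distance bins by edgeR's test of that difference. At 0.5 to 1 Mb on the high side, day 2 was lower than day 1 by a log2 difference of -0.44 (edgeR adjusted p = 0.0362), and both day 2 libraries were below both day 1 libraries. At 250 to 500 kb on the low side the log2 difference was also -0.44 (adjusted p = 0.0362), again without overlap. In the second bin neither day passed against day 0 in the fit without a replicate block (edgeR adjusted p = 0.579 on day 1 and 0.467 on day 2), and both days passed with the block (0.00796 and 0.0289).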

How the results depend on the processing

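Leaving out 1 library at a time turned the sign of many summary values. The differences from day 0, for day 1, day 2 and both days, then ran as follows. The share of reads on chromosome 12 ran from -2.47 to 8.64, from -12.2 to -1.12 and from -7.35 to 3.76 percentage points. The share within 1 Mb ran from -0.898 to 7.23, from -2.67 to 5.45 and from -1.79 to 6.34, with each extreme set by a day 0 library. The share over 20 Mb away ran from -5.02 to -0.125, from -2.08 to 2.82 and from -3.55 to 1.35. The slope ran from -0.06 to 0.04 (-0.0644 to 0.0416), from -0.124 to -0.018 and from -0.0942 to 0.0118. The captured share on other chromosomes ran from -1.33 to -0.181, from -1.16 to 1.60 and from -0.888 to 0.0884. Windows called on chromosome 12 numbered 0 to 4, 0 to 2 and 0 to 2, and on other chromosomes 0 to 0, 0 to 1 and 0 to 1. Each count above 0 came without day 0 replicate 1. Distance bins called on day 2 numbered 0 to 2.

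Without both replicate 2 libraries of days 1 and 2, an alternative chosen after seeing the data, the share on chromosome 12 for both days differed by 0.169, the share over 20 Mb away on day 2 by -1.45, and the captured share on other chromosomes for both days by 0.712. On day 2 the share within 1 Mb turned to -1.08 with a bait zone of 100 kb and to -0.638 with capped reads, and the share over 20 Mb away was -3.98 in captured sites. Bins called on day 2 fell to 0 with TMM and to 0 in captured sites. In captured sites the bin at 0.5 to 1 Mb on the high side stood at 0.37 on day 2 and 0.42 for both days, and the window at 13.3 Mb at 0.21 on day 1. Neither gained captured sites. For the bin the sign comes from dividing by the low chromosome 12 totals of the replicate 2 libraries (5081 and 5461 sites). The window was scaled by TMM, and why its sign turned was not tested. The window at 16.6 Mb turned to -0.33 on day 2 and -0.19 for both days with the 100 kb zone, which removes most of it. Other causes were not tested.

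With the replicate block, 3, 6 and 2 bins were called, and 0 windows in each comparison. On day 1 these were 250 to 500 kb on either side (high adjusted p = 0.0166, low 0.00796) and over 50 Mb on the high side (0.0452). On day 2 they were, on the high side, 10 to 50 kb (0.00158), 0.5 to 1 Mb (1.38e-06) and 10 to 20 Mb (0.000338), and on the low side 250 to 500 kb (0.0289), 1 to 2 Mb (0.0388) and 5 to 10 Mb (0.0356). For both days they were 0.5 to 1 Mb and 10 to 20 Mb on the high side (0.00182 each). All are edgeR adjusted p. Replicate 1 minus replicate 2 correlated between days at 0.45 to 0.64 over bins. Over windows it was -0.02 to 0.03, except for 0.32 between days 1 and 2 on other chromosomes. There the replicate 2 libraries are the pair that shared many sites. With 2 numbers that stand only in the deposited names, the values over bins are a hint from the data and no pairing by design. Of the named windows' values under other settings, 530 kept direction and side of the threshold, 6 newly passed it and 3 turned. The windows were named from these same libraries and none had passed, so a kept direction or side was largely fixed in advance. The median standard error in log2 was 2.31 in windows over 1 Mb away and 0.24 nearer on day 1, so precision was lower far from the bait.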
